A study of Mus musculus with 4 samples.

Results

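The glypicans and syndecans are the main families of cell-surface heparan sulfate proteoglycans, and their RNA was measured in enteric neural crest-derived cells of the mouse gut. All rows of the deposited expression table whose gene symbol is Gpc1 to Gpc6 or Sdc1 to Sdc4 were taken, with 1 row per Entrez identifier, which gave 10 of the 27178 genes in the table, 6 glypicans and 4 syndecans. The cells were from Wnt1-tdT mice, in which a red fluorescent protein marks the neural crest lineage, at 11.5 days post coitum, when these cells are still advancing along the gut. The Wavefront group held cells at the invasive front (2 libraries), and the Trailing group held cells 1 to 1.5 mm behind it (2 libraries); every library came from dissociated gut tissue sorted for tdT fluorescence. All groups carried the Wnt1-tdT label, no treatment or mutation was compared, and the labels do not say whether the libraries of a group came from separate embryos, so a p-value here reflects the spread among the 4 libraries and no more, and that spread may be technical.

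Glypicans are attached to the outer leaflet of the membrane by a lipid (GPI) anchor, whereas syndecans cross the membrane and carry a short cytoplasmic tail that binds PDZ proteins and the cytoskeleton. Both bear heparan sulfate chains that bind growth factors, morphogens and matrix proteins and present them to their receptors. Heparan sulfate is known to be needed for signalling by GDNF through Ret, the pathway that drives colonisation of the gut by these cells.

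The libraries were shallow. The deposited CPM, read counts scaled to each library's total, resolved into whole reads. Over all rows these summed to 543070 and 260217 in the Wavefront libraries and 517000 and 452142 in the Trailing libraries. With repeated rows dropped they summed to 535636 and 258457 in the Wavefront libraries and 511074 and 447224 in the Trailing libraries. Of the latter reads, ribosomal RNA genes took 15.6% and 55.5% in the Wavefront libraries and 24.4% and 26.1% in the Trailing libraries. That left 114972 reads outside them in Wavefront replicate 2. All 9 enteric neural crest markers examined, Ret among them, had reads in every library. In CPM over the genes outside ribosomal RNA they summed to 4737 and 2548 in the Wavefront libraries and 4054 and 3218 in the Trailing libraries. Wavefront replicate 2 was thus the lowest. Levels are given below as scaled CPM, CPM computed on an effective library size. That size is the library's reads over the genes kept for the edgeR test described below, multiplied by its TMM normalization factor. In Wavefront replicate 2, 3 reads, taken here as the limit that a count of 0 allows, correspond to 17.5 scaled CPM, against 5.04 in Wavefront replicate 1 and 5.68 and 6.29 in the Trailing libraries.

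Gpc3 was higher at the wavefront than behind it by the count test on recovered reads, which was run in addition to the main test, limma on the CPM; limma called no member. Gpc3 was also the most abundant member per kilobase in both groups. Its summed reads were 180 in the Wavefront libraries and 87 in the Trailing libraries, although the Trailing libraries held more reads outside ribosomal RNA. Gpc1 and Sdc4 lay higher and Gpc2 lower at the wavefront without overlap of the libraries in scaled CPM. None of these passed a test. Such separation was common, at 39.1% of the genes in the count test. Gpc1 overlapped on the deposited CPM, and Sdc4 had at most 7 reads in a library. Gpc6, Sdc1 and Sdc3 had log2 fold changes between -0.03 and 0.02 in the count test. Sdc2 and Sdc4 had too few reads for the count test, Gpc4 had 2 reads in all, and Gpc5 had 0 reads.

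**Figure D1:**
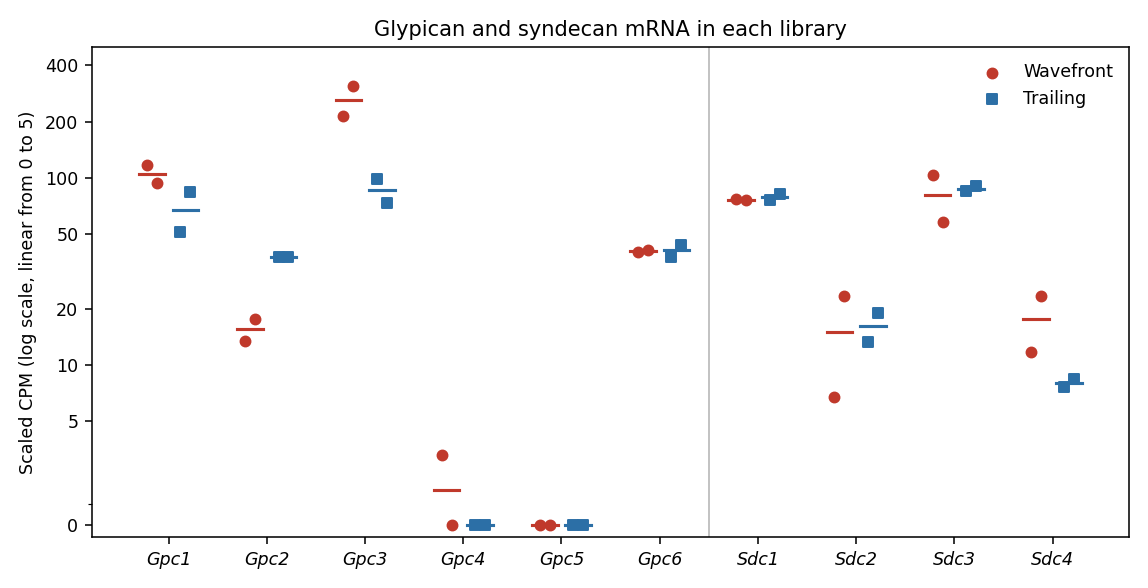
Level of each of the 10 members in scaled CPM (CPM on the TMM-adjusted library size), on an axis that is linear from 0 to 5 and logarithmic above, in each of the 4 libraries. Points are libraries and short lines are group means, with Wavefront left of Trailing; Gpc3 reached 213 and 310 in the Wavefront libraries and 98.5 and 73.4 in the Trailing libraries, whereas the libraries overlap for Gpc6, Sdc1 and Sdc3.

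The comparison of Wavefront over Trailing asks which of these genes differ between cells at the front and cells behind it. Per-gene differences were tested with limma on log2(CPM + 1), the main test, and in addition with edgeR's quasi-likelihood test on the recovered reads (the count test), each with Benjamini-Hochberg adjustment over all genes tested and a threshold of 0.05. In limma 0 of the 8 members tested passed, against 0.0% of all 12519 genes tested, and 2 of the 8 had an unadjusted p under 0.05, against 6.85% of all genes. In the count test 1 of the 6 members tested, Gpc3, passed, against 0.399% of the 5759 genes tested that were called higher, 1.34% called lower and 1.74% called in either direction. At an unadjusted p under 0.05 the count test gave 3 of the 6 members (Gpc1, Gpc2 and Gpc3), against 9.9% of all genes. DESeq2 on the same reads called 0 members, against 0.396% of the 3789 genes to which it gave an adjusted p, and 1 member, Gpc3, had an unadjusted p under 0.05. Taken from the authors' deposited table and adjusted over its genes, the p-values called 0 members, against 0.0891% of all genes, and again 1 member, Gpc3, was under 0.05 before adjustment. The median log2 fold change of the 6 members was 0.01 in the count test, and it was 0.01 over all genes. In limma, which used CPM without TMM factors, the median was -0.31 over 8 members, beside -0.35 over all genes.

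The Wavefront and Trailing libraries did not overlap in scaled CPM for 3 of the 6 members in the count test. Over all genes in that test, 39.1% did not overlap, with 18.3% higher and 20.9% lower at the wavefront, so lying apart was common in these libraries. Gpc1 and Gpc3 were the 2 members that lay higher, and Gpc2 the 1 that lay lower.

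Gpc3 encodes glypican-3, whose loss causes an overgrowth syndrome in people and mice and which is known to bind Hedgehog and Wnt ligands. The gene lies on the minus strand of chromosome X (GRCm38, chrX:52272426-52613950), with Gpc4 as its neighbour at a distance of 107173 bp and no annotated gene between them. Gpc3 had 127 and 53 reads in the Wavefront libraries and 52 and 35 reads in the Trailing libraries. On the scaled CPM these were 213 and 310 in the Wavefront libraries, against 98.5 and 73.4 in the Trailing libraries. Both Wavefront libraries lay above both Trailing libraries, and the shallower Wavefront library was the higher of the pair. The group means were 261 ± 68.2 scaled CPM at the wavefront and 85.9 ± 17.8 behind it (SD, n = 2 each). By the count test Gpc3 rose 2.93-fold at the wavefront, a log2 fold change of 1.55 ± 0.32 (SE, edgeR adjusted p = 0.00186), and limma gave 1.30 with an adjusted p of 0.680 on the log2(CPM + 1) scale. In bulk RNA such as this, more cells with a transcript and more RNA per cell cannot be told apart. The call for Gpc3 was lost when libraries were scaled to their totals alone (log2 fold change 1.28, adjusted p = 0.685), in DESeq2 (1.57, adjusted p = 0.177) and with the authors' p-values (1.25, adjusted p = 0.610). It was also lost without Trailing replicate 1 (1.83, edgeR adjusted p = 0.0505) and without Trailing replicate 2 (1.38, adjusted p = 0.321).

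The stretch of 250 bases directly upstream of the RefSeq start of Gpc3 is shown because Gpc3 is the member whose level differed by the count test. The RefSeq start (position 52613974) lies 24 bp upstream of the GENCODE start given above. The stretch was taken from RefSeq (GRCm38.p6, chrX:52613975-52614224, minus strand) and is written 5′ to 3′ along the gene, with capitals marking the GC box GGGCGG or its reverse complement.
Gpc3 upstream: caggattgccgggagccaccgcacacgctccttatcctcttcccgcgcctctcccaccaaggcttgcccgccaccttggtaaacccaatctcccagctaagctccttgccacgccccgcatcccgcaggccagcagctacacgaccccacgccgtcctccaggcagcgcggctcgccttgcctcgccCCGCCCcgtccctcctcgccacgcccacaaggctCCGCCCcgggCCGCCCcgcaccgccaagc
The stretch holds 3 GC boxes and no TATA box (TATAAA, searched on both strands, with no overlap with the GC boxes), and its GC content is 71.6%, beside a median of 52.4% over 32851 RefSeq promoter windows of the same length. A GC box is present in 32.7% of those windows and a TATA box in 12.4%. The deposited data hold no measurement on this stretch itself, and the matches are a description of its letters. Promoter windows were given for 7 of the 10 members, and each of these held a GC box. Gpc2, Sdc1 and Sdc3 also held 3, Sdc4 held 4, and Gpc4 and Gpc5 held 1 each. GC content ran from 51.2% in Gpc5 to 76.4% in Sdc3, and only Gpc5 had a TATA box. These traits do not set Gpc3 apart from members that were not called.

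Markers of gut mesenchyme, which surrounds the crest cells, were also higher at the wavefront. The 20 mesenchymal markers summed to 240 and 180 reads in the Wavefront libraries and 92 and 83 reads in the Trailing libraries, or, in CPM over the genes outside ribosomal RNA, 531 and 1566 in the Wavefront libraries against 238 and 251 in the Trailing libraries. Col3a1 and Des together gave 205 and 104 of these reads in the Wavefront libraries and 73 and 64 in the Trailing libraries, which left 35 and 76 reads over the other 18 markers in the Wavefront libraries against 19 and 19 in the Trailing libraries. In CPM outside ribosomal RNA Gpc3 had 281 and 461 in the Wavefront libraries and 135 and 106 in the Trailing libraries. Only 3 of the 20 mesenchymal markers entered the count test, all with a log2 fold change above 0. Of these, 2 rose and 1 did not pass, against 0.399% of all genes called higher. The 2 that rose were Col3a1, a fibrillar collagen, with a log2 fold change of 1.58 ± 0.35 (SE, edgeR adjusted p = 0.00406), and Des, which encodes desmin of muscle cells, with 2.84 ± 0.43 (SE, edgeR adjusted p = 1.4e-05). Col3a1 passed in 5 of 12 alternatives of the count test and Des in 8 of 12, and limma called neither (adjusted p = 0.680 for each). The Col3a1 call was lost without Wavefront replicate 2, Trailing replicate 1 or Trailing replicate 2 (log2 fold changes of 0.91 to 1.64, edgeR adjusted p = 0.191, 0.179 and 0.179), with library size alone (adjusted p = 0.807), in DESeq2 (0.177), with the authors' p-values (0.597) and with thinned reads (0.176). The Des call was lost without Wavefront replicate 1 (2.05, edgeR adjusted p = 0.255), in DESeq2 (adjusted p = 0.106), with the authors' p-values (0.332) and with thinned reads (0.467). Of the 20 markers, 10 and 6 were at 0 in the Wavefront libraries and 12 and 10 in the Trailing libraries, and Twist1, Twist2, Osr1, Barx1, Tbx5 and Myh11 were at 0 in all of them. Red blood cell markers had 111 reads in Wavefront replicate 2, against 1 in Wavefront replicate 1 and 2 and 0 in the Trailing libraries. The log2 fold change of Gpc3 was 1.35 without Wavefront replicate 2 (edgeR adjusted p = 0.00799) and 1.84 without Wavefront replicate 1 (edgeR adjusted p = 0.000892); in CPM outside ribosomal RNA the summed markers were higher in Wavefront replicate 2, and in scaled CPM Des was higher in Wavefront replicate 1. The part of mesenchymal cells in the Gpc3 result was not tested.

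Gpc1, a glypican abundant in the nervous system, had 70 and 16 reads in the Wavefront libraries and 27 and 40 reads in the Trailing libraries. Its levels were 118 and 93.5 scaled CPM in the Wavefront libraries, against 51.1 and 83.8 scaled CPM in the Trailing libraries. The groups lay apart on this scale by a narrow margin but overlapped on the deposited CPM (129 and 61.5 in the Wavefront libraries, 52.2 and 88.5 in the Trailing libraries). The log2 fold change was 0.70 ± 0.33 in the count test (SE, edgeR adjusted p = 0.461), so the difference did not pass. Gpc1 lies on chromosome 1 (GRCm38, chr1:92831645-92860779, plus strand).

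Gpc2 encodes cerebroglycan, a glypican found mainly on developing neurons as they extend axons. It had 8 and 3 reads in the Wavefront libraries and 20 and 18 reads in the Trailing libraries. The levels were 13.4 and 17.5 scaled CPM in the Wavefront libraries and 37.9 and 37.7 scaled CPM in the Trailing libraries. The Trailing libraries were close to each other and lay above both Wavefront libraries, where Wavefront replicate 2 stood at its 3-read limit. The log2 fold change of Gpc2 was -1.37 ± 0.54 in the count test (SE, edgeR adjusted p = 0.304) and -1.52 in limma (adjusted p = 0.680), and it was not called in any of the 10 alternatives of the count test and 11 of limma that gave it an adjusted p. Gpc2 lies on chromosome 5 (GRCm38, chr5:138273655-138280005, minus strand), where a second annotated gene on the same strand, Gm43720, covers 6304 bp of it; the sources used here do not give how reads in the shared part were counted.

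Neuronal markers differed in the same direction as Gpc2. The 12 enteric neuron markers summed to 531 and 121 reads in the Wavefront libraries and 1882 and 1782 reads in the Trailing libraries, or, in CPM outside ribosomal RNA, 1174 and 1052 in the Wavefront libraries against 4869 and 5389 in the Trailing libraries. In the count test 11 of the 12 fell at the wavefront, against 1.34% of all genes. DESeq2 called 6 and limma 0. In limma all 12 had an unadjusted p under 0.05, against 6.85% of all genes. Of the 12 markers, 1 and 2 of them were at 0 in the Wavefront libraries, against 0 in each Trailing library. Glial and Schwann precursor markers had 119 and 130 CPM outside ribosomal RNA in the Wavefront libraries and 422 and 375 in the Trailing libraries, and 2 of the 3 in the count test fell at the wavefront. DESeq2 called 1 of the glial markers and limma 0, with 3 at an unadjusted p under 0.05 in limma. The part of neurons in the Gpc2 values was not tested.

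Gpc6, which is mutated in a skeletal dysplasia in people, had 24 and 7 reads in the Wavefront libraries and 20 and 21 reads in the Trailing libraries. Its levels were 40.3 and 40.9 scaled CPM in the Wavefront libraries and 37.9 and 44.0 scaled CPM in the Trailing libraries. The Wavefront libraries lay between the Trailing libraries, and the log2 fold change was -0.01 ± 0.41 (SE, edgeR adjusted p = 0.997). At these read numbers a value near 0 does not show that the levels were equal. Gpc6 (GRCm38, chr14:116925315-117976544, plus strand) lies 400135 bp from Gpc5 (chr14:115092215-116525179, plus strand).

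Gpc4 and Gpc5 were at the edge of detection. Gpc4, which in zebrafish acts in the cell movements of gastrulation, had 2 and 0 reads in the Wavefront libraries and 0 reads in each Trailing library. Gpc5 had 0 reads in all 4 libraries. With 0 reads, a level of up to 5.04 and 17.5 scaled CPM in the Wavefront libraries and of up to 5.68 and 6.29 scaled CPM in the Trailing libraries was possible, an estimate that covers counting error only.

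**Figure D2:**
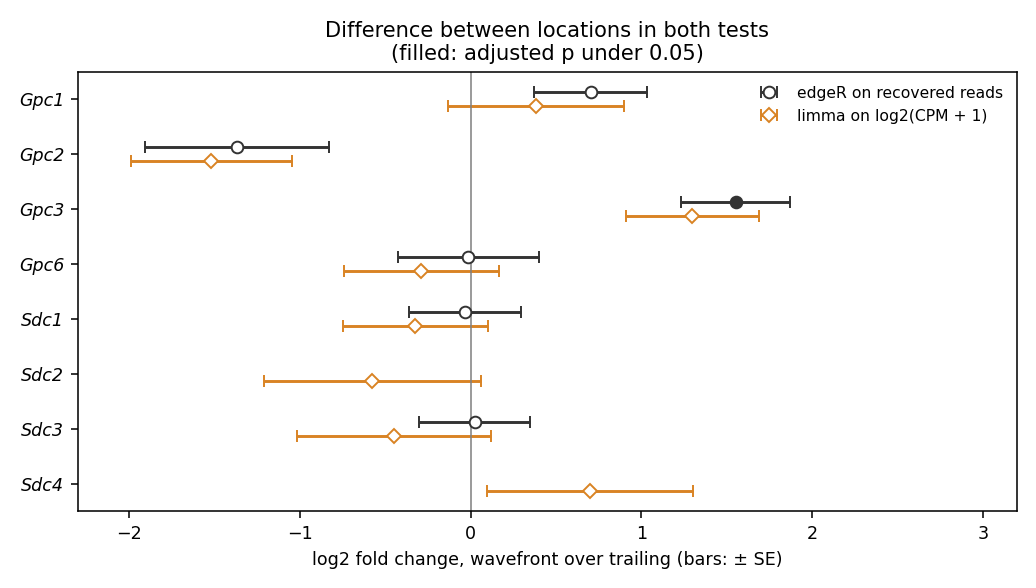
Log2 fold change, Wavefront over Trailing, of each member tested, from the count test (edgeR) and from limma on log2(CPM + 1), with bars of 1 SE. In the count test Gpc3 stands at 1.55, Gpc1 at 0.70 and Gpc2 at -1.37, and the other 3 members lie between -0.03 and 0.02; filled points passed the adjusted threshold of 0.05, and Sdc2 and Sdc4 have limma values only.

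In limma 0 of the 4 syndecans passed, against 0.0% of all genes. The count test took only Sdc1 and Sdc3 and called neither, against 1.74% of all genes called in either direction. DESeq2 called 0 and gave no adjusted p to Sdc2 and Sdc4. At an unadjusted p under 0.05 there were 0 syndecans in limma, against 6.85% of all genes. The count test likewise gave 0, against 9.9% of all genes, and DESeq2 gave 0. Sdc1, best known from epithelia and plasma cells, had 46 and 13 reads in the Wavefront libraries and 40 and 39 reads in the Trailing libraries. Its levels were 77.3 and 76.0 scaled CPM in the Wavefront libraries and 75.8 and 81.7 scaled CPM in the Trailing libraries. The Wavefront libraries lay within the range of the Trailing libraries. The log2 fold change of Sdc1 was -0.03 ± 0.33 (SE, edgeR adjusted p = 0.988). Markers of gut epithelium, where Sdc1 is abundant, had 16 and 10 reads over 14 genes in the Wavefront libraries and 5 and 3 in the Trailing libraries.

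Sdc3, the syndecan of neural cells, had 62 and 10 reads in the Wavefront libraries and 45 and 43 reads in the Trailing libraries. Its levels were 104 and 58.4 scaled CPM in the Wavefront libraries, against 85.2 and 90.1 scaled CPM in the Trailing libraries. The Wavefront libraries lay on either side of the Trailing pair, so their spread was wider than the distance between the groups. The log2 fold change was 0.02 ± 0.32 (SE, edgeR adjusted p = 0.994).

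Sdc4, a syndecan of focal adhesions, had 7 and 4 reads in the Wavefront libraries and 4 and 4 reads in the Trailing libraries. Its levels were 11.8 and 23.4 scaled CPM in the Wavefront libraries and 7.58 and 8.38 scaled CPM in the Trailing libraries, which did not overlap, but every library held fewer than 10 reads. In limma its log2 fold change was 0.70 (adjusted p = 0.786). Sdc2, found on mesenchymal cells and in synapse formation, had 4 and 4 reads in the Wavefront libraries and 7 and 9 reads in the Trailing libraries. Its levels of 6.72 and 23.4 scaled CPM in the Wavefront libraries spanned those of 13.3 and 18.9 scaled CPM in the Trailing libraries, and limma gave -0.58 (adjusted p = 0.839). The 4 syndecan genes lie on chromosomes 12 (Sdc1), 15 (Sdc2), 4 (Sdc3) and 2 (Sdc4).

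Summed over the family, the glypicans reached 388 and 462 scaled CPM in the Wavefront libraries and 225 and 239 in the Trailing libraries, or 425 ± 52.1 at the wavefront and 232 ± 9.59 behind it (SD, n = 2 each). Without Gpc3 the glypican sum was 163 ± 16.1 at the wavefront and 146 ± 27.4 behind it, values of 175 and 152 in the Wavefront libraries against 127 and 166 in the Trailing libraries, which overlap. The syndecan sum was 199.9 and 181 scaled CPM in the Wavefront libraries and 182 and 199 in the Trailing libraries, with means of 190.5 ± 13.2 and 190.5 ± 12.2 (SD, n = 2 each). An exact permutation test of 2 libraries against 2 cannot give a two-sided p below 0.333, so no permutation p is given for these sums.

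The balance between the families does not depend on how libraries are scaled, because it is a share of the members' own reads. Glypicans made up 66.0% (exact binomial 95% interval 60.8% to 71.0%) and 71.8% (62.4% to 80.0%) of the member reads in the Wavefront libraries. In the Trailing libraries they made up 55.3% (48.4% to 62.1%) and 54.5% (47.5% to 61.4%). Both Wavefront shares were above both Trailing shares, although the interval of Wavefront replicate 1 touches those of both Trailing libraries. The intervals cover counting error only. The glypican share includes Gpc3. Without Gpc3 the glypican reads were 104 and 26 in the Wavefront libraries and 67 and 79 in the Trailing libraries. The syndecan reads were 119 and 31 in the Wavefront libraries and 96 and 95 in the Trailing libraries. Glypican reads without Gpc3 were thus fewer than syndecan reads in every library of both groups.

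Within the glypican reads, Gpc3 took the larger share at the wavefront and Gpc2 the larger share behind it, each compared with its own share in the other group. Gpc3 took 55.0% (48.3% to 61.5%) and 67.1% (55.6% to 77.3%) of the glypican reads in the Wavefront libraries, against 43.7% (34.6% to 53.1%) and 30.7% (22.4% to 40.0%) in the Trailing libraries. Gpc2 took 3.46% (1.51% to 6.71%) and 3.80% (0.79% to 10.7%) in the Wavefront libraries, against 16.8% (10.6% to 24.8%) and 15.8% (9.63% to 23.8%) in the Trailing libraries. For neither gene did the Wavefront shares overlap the Trailing shares, although the interval of Wavefront replicate 1 overlaps that of Trailing replicate 1 for Gpc3, and the interval of Wavefront replicate 2 overlaps those of both Trailing libraries for Gpc2. Gpc1 shares were 30.3% and 20.3% in the Wavefront libraries and 22.7% and 35.1% in the Trailing libraries, and those overlapped. Gpc6 shares were 10.4% and 8.86% in the Wavefront libraries and 16.8% and 18.4% in the Trailing libraries. Shares of 1 total are not independent: a larger Gpc3 share lowers the others, and the scaled CPM of Gpc6 overlapped between the groups. Over the glypican reads without Gpc3, a denominator chosen after the data were seen, Gpc6 took 23.1% and 26.9% in the Wavefront libraries and 29.9% and 26.6% in the Trailing libraries, which overlap. On that denominator Gpc2 took 7.69% (3.38% to 14.6%) and 11.5% (2.45% to 30.2%) in the Wavefront libraries, against 29.9% (19.3% to 42.3%) and 22.8% (14.1% to 33.6%) in the Trailing libraries, with no overlap of the shares but an overlap of some of their intervals. Within the syndecan reads, Sdc1 took 38.7% and 41.9% in the Wavefront libraries and 41.7% and 41.1% in the Trailing libraries. Sdc3 took 52.1% and 32.3% in the Wavefront libraries and 46.9% and 45.3% in the Trailing libraries. The shares of Sdc2 were 3.36% and 12.9% in the Wavefront libraries and 7.29% and 9.47% in the Trailing libraries. Those of Sdc4 were 5.88% and 12.9% in the Wavefront libraries and 4.17% and 4.21% in the Trailing libraries. Wavefront replicate 2 held only 31 syndecan reads.

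**Figure D3:**
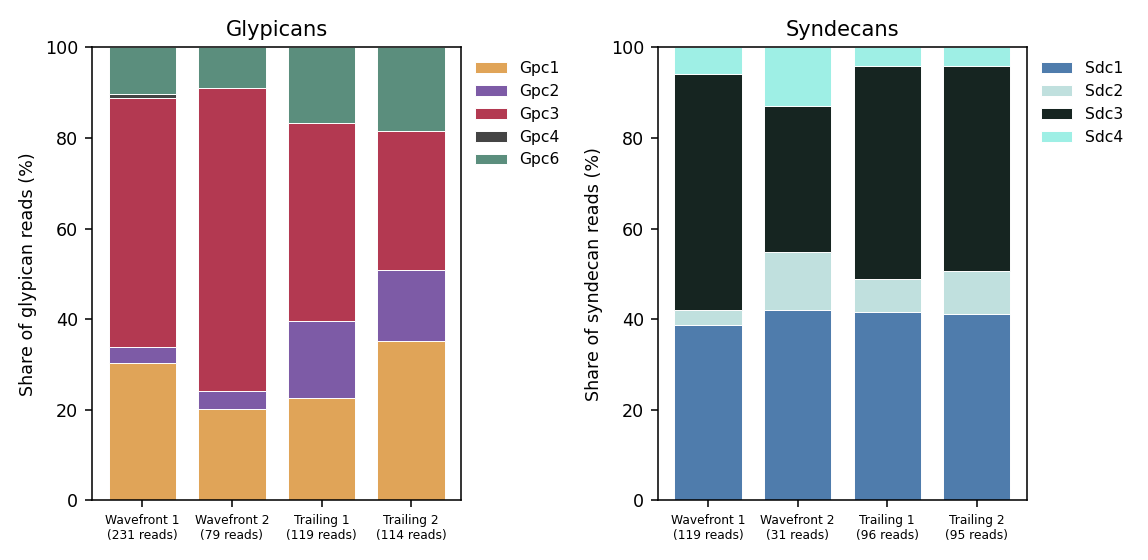
Share of the glypican reads (left panel) and of the syndecan reads (right panel) taken by each member, in percent, in the 4 libraries, with the Wavefront libraries left of the Trailing libraries and the number of reads under each bar. Gpc3 takes 55.0% and 67.1% of the glypican reads in the Wavefront libraries and 43.7% and 30.7% in the Trailing libraries, and Gpc2 takes 3.46% and 3.80% against 16.8% and 15.8%.

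To compare members with one another, scaled CPM was divided by the length of each gene's merged exons. At the wavefront the order began with Gpc3 at 97.2 ± 25.3 scaled CPM per kilobase (SD, n = 2), followed by Gpc1 at 20.5 ± 3.30, Sdc1 at 20.1 ± 0.24 and Sdc3 at 13.6 ± 5.39. Lower levels at the wavefront were those of Sdc4 at 6.90 ± 3.23, Gpc6 at 6.32 ± 0.07, Sdc2 at 4.27 ± 3.34 and Gpc2 at 3.62 ± 0.68 scaled CPM per kilobase. Gpc3 was separated from the next member in both Wavefront libraries, and Sdc3 lay below Gpc1 and Sdc1 and above Sdc4 without overlap. The ranges of Gpc1 and Sdc1 overlapped, as did those of each neighbouring pair from Sdc4 down to Gpc2.

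Behind the wavefront Gpc3 again came first at 31.9 ± 6.60 scaled CPM per kilobase, followed by Sdc1 at 20.7 ± 1.11, Sdc3 at 14.6 ± 0.58 and Gpc1 at 13.1 ± 4.48. Gpc2 stood at 8.84 ± 0.02 scaled CPM per kilobase there, Gpc6 at 6.37 ± 0.68, Sdc2 at 4.55 ± 1.12 and Sdc4 at 3.13 ± 0.22. The ranges of Sdc3 and Gpc1 overlapped, and those of the other neighbours in the Trailing order did not. With the longest transcript in place of merged exons, Gpc3 kept its place at the top in both groups, Gpc6 and Sdc4 exchanged places at the wavefront, and Gpc6 and Gpc2 exchanged places behind it.

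**Figure D4:**
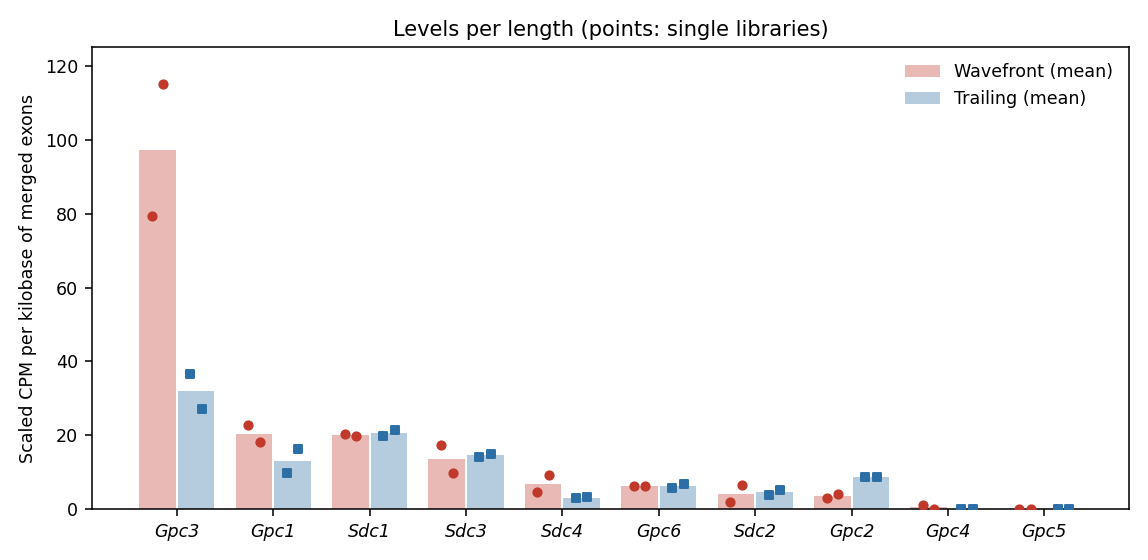
Level of each member in scaled CPM per kilobase of merged exons, in order of the Wavefront mean. Bars are group means starting at 0 and points are single libraries, with Wavefront left of Trailing. Gpc3 lies highest in both groups, at 97.2 on average at the wavefront and 31.9 behind it, and Gpc2 lies lowest among the members above 2 reads at the wavefront.

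The genes whose pattern over the 4 libraries was most like that of Gpc3 were searched among all genes of the count test, by the Euclidean distance between centred values of log2(scaled CPM + 1). The nearest 5 were Phf12 (distance 0.18), Rftn1 (0.25), Mettl2 (0.27), Aqr (0.27) and Rerg (0.30). Phf12 encodes a chromatin protein, Rftn1 a lipid raft protein, Aqr a splicing factor and Rerg a small GTPase. They had between 3 and 33 reads per library, and the count test gave them log2 fold changes of 1.30 to 1.78, with edgeR adjusted p-values of 0.105 for Aqr to 0.461 for Rerg. None passed the test, and with 4 libraries likeness of this kind is a description.

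The chains that glypicans and syndecans carry are made, modified and read by other genes, which were taken from 8 lists of 105 genes in all. In the count test 35 of them were tested, 1 rose, 0 fell and 34 did not pass. Over all genes 0.399% were called higher and 1.34% lower. Of the 35, 9 had an unadjusted p under 0.05, against 9.9% of all genes. In limma 0 of 82 passed and 8 had an unadjusted p under 0.05, against 6.85% of all genes. DESeq2 called 0 and gave 4 an unadjusted p under 0.05, for which no share over all genes is given here. The median log2 fold change of the 35 was 0.08 in the count test, beside 0.01 over all genes.

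**Figure D5:**
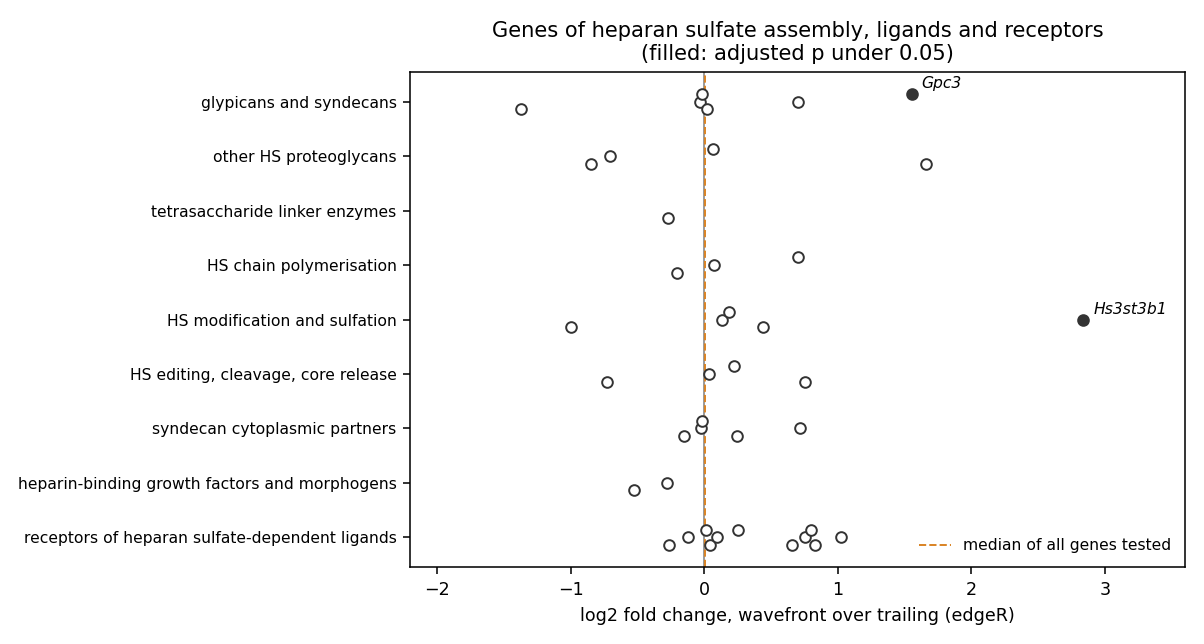
Log2 fold change, Wavefront over Trailing, from the count test (edgeR) for the tested genes of the heparan sulfate lists (HS on the axis labels), 1 point per gene and 1 line per list; filled points passed the adjusted threshold of 0.05. The passing points are Gpc3 at 1.55 and Hs3st3b1 at 2.84.

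The gene that rose was Hs3st3b1, a sulfotransferase that adds the rare 3-O-sulfate to heparan sulfate, 1 of 5 tested genes of chain modification. It had 29 and 6 reads in the Wavefront libraries and 1 and 5 reads in the Trailing libraries, that is 48.7 and 35.1 scaled CPM in the Wavefront libraries against 1.89 and 10.5 in the Trailing libraries. The groups did not overlap on scaled CPM. The log2 fold change was 2.84 ± 0.63 (SE, edgeR adjusted p = 0.00434), and limma gave 2.60 (adjusted p = 0.680). The call was lost without Trailing replicate 1, which held 1 read (2.08, edgeR adjusted p = 0.346), and with the authors' p-values (1.15, adjusted p = 0.9997). DESeq2 gave it no adjusted p, and without Wavefront replicate 1, which held 29 of its 35 Wavefront reads, it did not enter the count test. Of the 5 tested genes of this list, 2 had an unadjusted p under 0.05 in the count test, Hs3st3b1 among them, against 9.9% of all genes. The other tested genes of this list did not pass, among them the sulfate donor enzyme Papss1 with 92 and 42 reads in the Wavefront libraries and 84 and 90 reads in the Trailing libraries, and the N-sulfating enzyme Ndst1 with 41 and 11 reads in the Wavefront libraries and 28 and 22 reads in the Trailing libraries.

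Chain assembly and chain editing held no called gene. Ext2 (log2 fold change 0.70, edgeR unadjusted p = 0.0477) and Sulf2 (-0.73, edgeR unadjusted p = 0.0401) were under 0.05 before adjustment, against 9.9% of all genes. Of the polymerisation enzymes, 3 were tested with a median log2 fold change of 0.08, and Ext2, a subunit of the chain polymerase, had 43 and 18 reads in the Wavefront libraries and 28 and 23 reads in the Trailing libraries. Of the linker enzymes 1 was tested, B3galt6, with 9 and 4 reads in the Wavefront libraries and 11 and 10 reads in the Trailing libraries. Of the genes for editing, cleavage and release, 4 were tested with a median of 0.13, and Sulf2, which removes 6-O-sulfate groups, had 32 and 8 reads in the Wavefront libraries and 39 and 47 reads in the Trailing libraries. Adam10, a protease that can shed surface proteins, had 44 and 13 reads in the Wavefront libraries and 31 and 33 reads in the Trailing libraries.

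The other heparan sulfate proteoglycans were tested at 4 genes, with 0 calls and a median log2 fold change of -0.32. Of these, 3 had an unadjusted p under 0.05 in the count test, against 9.9% of all genes. Nrp1, a semaphorin and VEGF receptor that can carry such a chain, had 486 and 98 reads in the Wavefront libraries and 363 and 310 reads in the Trailing libraries. Agrn (agrin) had 42 and 13 reads in the Wavefront libraries and 69 and 50 reads in the Trailing libraries. Col18a1 (collagen XVIII) had 13 and 17 reads in the Wavefront libraries and 45 and 34 reads in the Trailing libraries. In scaled CPM Agrn had 70.5 and 76.0 in the Wavefront libraries, against 131 and 105 in the Trailing libraries. Col18a1 had 21.8 and 99.3 scaled CPM in the Wavefront libraries and 85.2 and 71.3 in the Trailing libraries, which overlap. Hspg2, the basement membrane proteoglycan perlecan, was chosen after its values were seen, and had 25 and 14 reads in the Wavefront libraries and 7 and 10 reads in the Trailing libraries. Its log2 fold change was 1.66 ± 0.49 (SE, edgeR adjusted p = 0.0704), so it did not pass. Over 11 alternatives of the count test its adjusted p was 0.0252 to 0.9997, and it passed in 2 of them.

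Partners, ligands and receptors also gave no call. The syndecan cytoplasmic partners were tested at 5 genes with a median log2 fold change of -0.02, led by Sdcbp (syntenin, a PDZ protein that binds the syndecan tail) with 187 and 40 reads in the Wavefront libraries and 145 and 139 reads in the Trailing libraries. Of the heparin-binding growth factors 2 were tested with a median of -0.40. The most abundant was Mdk (midkine), with 115 and 60 reads in the Wavefront libraries and 160 and 158 reads in the Trailing libraries. In scaled CPM Mdk had 193 and 351 in the Wavefront libraries and 303 and 331 in the Trailing libraries, which overlap. Wnt5a, a secreted Wnt ligand with too few reads for the count test, had 7 and 12 reads in the Wavefront libraries and 2 and 2 reads in the Trailing libraries (limma log2 fold change 2.32, adjusted p = 0.680). The receptors of heparan sulfate-dependent ligands were tested at 11 genes with a median of 0.25, none of which passed. Of these, 2 had an unadjusted p under 0.05 in the count test, against 9.9% of all genes. Ret, the GDNF receptor, had 1413 and 155 reads in the Wavefront libraries and 864 and 545 reads in the Trailing libraries. Itgb1, the integrin beta-1 chain, had 427 and 94 reads in the Wavefront libraries and 211 and 159 reads in the Trailing libraries, which did not overlap in scaled CPM (717 and 549 in the Wavefront libraries, 399.6 and 333 in the Trailing libraries), and its log2 fold change of 0.80 ± 0.33 did not pass (SE, edgeR adjusted p = 0.375). Gfra1, the co-receptor of Ret, had 140 and 33 reads in the Wavefront libraries and 134 and 73 reads in the Trailing libraries.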

How the data were processed

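RNA of tdT-sorted cells was sequenced from Nextera XT libraries, per the labels' protocols. STAR 2.5.2b, bcl2fastq 2.17, featureCounts, FastQC 0.11.9 and DESeq2 are named with GRCm38/mm10, per the submitters' processing notes; the sources used here do not give strand or annotation settings. Nextera XT does not mark strand, so reads of a member and of an overlapping antisense gene cannot be told apart. Annotated antisense genes overlap the spans of Gpc1, Gpc3 and Sdc3. Over Gpc3 these are Gm14582 and A630012P03Rik. The latter had 2 and 0 reads in the Wavefront libraries and 1 and 0 in the Trailing libraries. The authors deposited 1 table of 27606 rows, of which 428 repeated a gene with the same values and were dropped. Its CPM columns hold the authors' counts scaled to library totals, per the file headers. The deposited table also holds the authors' log2 fold change, its standard error, a test score and a p-value per gene, and a mean signal over libraries.

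Each CPM divided by the library's smallest step (1.84 and 3.84 in Wavefront, 1.93 and 2.21 in Trailing) gave whole reads for 100% of values, within 0.01 reads. limma 3.58.1 tested log2(CPM + 1) with a trended prior, keeping genes whose mean CPM exceeded 1. edgeR 4.0.16 tested the recovered reads with TMM factors of 1.17 and 0.690 in Wavefront and 1.09 and 1.14 in Trailing. Its automatic filter used a minimum count of 10. The SE given for the count test was derived from its result. It is the absolute log2 fold change divided by the square root of the test's F value, and is approximate. Replicates correlated at 0.825 in Wavefront and 0.924 in Trailing (Pearson, across 5759 genes, log2 scaled CPM). DESeq2 1.42.0, other scalings and filters, thinning and leaving out each library were alternatives; R was 4.3.3. Exon lengths and positions are from GENCODE M21. The named genes are all members, list genes that passed a test, up to 3 with the highest mean CPM per list, marker genes that passed, and the 5 nearest in pattern to a called member. The members and lists were chosen with earlier results of these data known.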

Additional observations from a re-analysis of the deposited data

How the results depend on the processing

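Of the alternatives, limma called 0 genes with a pseudocount of 1 or 0.5 and without any single library, 3 with a pseudocount of 5, 5 without a filter, 36 above a mean CPM of 10, 9 with DESeq2 size factors, 4 with CPM outside ribosomal RNA and 52 with a replicate block; no member passed limma in any of these. The count test called 100 genes, against 15 in DESeq2, 13 by the authors' p-values, 15 with libraries thinned to 114972 reads, 61 with a replicate block and 40 (without Trailing replicate 2), 44 (without Trailing replicate 1), 78 (without Wavefront replicate 1) and 143 (without Wavefront replicate 2). Gpc3 passed in 7 of 12 alternatives. Where it did not, its log2 fold change was 1.28 (library size alone), 1.57 (DESeq2), 1.25 (authors), 1.83 (without Trailing replicate 1) and 1.38 (without Trailing replicate 2). Among those where it passed, the log2 fold change was 1.84 without Wavefront replicate 1 and 1.35 without Wavefront replicate 2. It was 1.55 with a replicate block (edgeR adjusted p = 0.0164) and 2.13 thinned. The replicate block took the call of Hs3st3b1 (2.88, adjusted p = 0.0868). Replicate numbers are shared between the groups, and the labels do not say whether equal numbers pair the samples. Across 5759 genes the deviations of equal numbers correlated at 0.0589. With 2 libraries per group this value cannot settle whether they are paired. Library size alone moved the median of all genes to -0.20.

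Among the members, signs turned for Gpc1, Gpc6, Sdc1 and Sdc3, none of them called. In limma, leaving out single libraries gave -0.14 to 0.91 for Gpc1, -0.64 to 0.0587 for Gpc6, -0.70 to 0.0516 for Sdc1 and -1.22 to 0.32 for Sdc3; Itgb1, also uncalled, gave -0.0685 to 1.05. In the count test Gpc6 was 0.0010 with RLE factors, 0.00071 in DESeq2, 0.00045 in the authors' table, 0.0126 without a filter, 0.0165 with a replicate block and -0.0862 to 0.10 without single libraries. Sdc1 was 0.0879 thinned and -0.0578 to 0.0259 without single libraries. Sdc3 was -0.20 with library size alone, -0.0308 in DESeq2, -0.0217 in the authors' table, -0.0362 with a replicate block, -0.18 thinned and -0.58 to 0.30 without single libraries. The cause was not tested. With the longest transcript, 8 of 17 levels per kilobase moved by over 1 SD. Depth limits Gpc4, Gpc5, Sdc2 and Sdc4 most, with at most 9 reads in a library.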
